A study of Mus musculus with 4 samples.

Results

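Myelin is the membrane that oligodendrocytes wrap around axons, and its structural genes encode the proteins that compact the layers, seal their edges and hold the innermost turn to the axon. A cell of this lineage starts as a dividing, Pdgfra-positive precursor, passes through a Gpr17-positive committed state and an Enpp6-positive newly formed oligodendrocyte, and ends as a Mog-positive mature cell. Myelin RNA builds up along that path until it is a large share of the transcriptome. Some of it is carried far from the cell body, Mbp RNA being the textbook case, and when brain tissue is dissociated such RNA is readily shed into the fluid around the cells.

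Counts of 9 such genes were followed along the lineage and in neurons, which should lack them. Mbp (myelin basic protein) holds together the cytoplasmic faces of compact myelin, and Mobp is a further basic protein of the same place. Mog is displayed on the outermost layer, while Mag sits on the innermost layer and faces the axon. Cldn11 forms the tight junctions between turns. Mal is a proteolipid of lipid rafts that takes part in sorting proteins to myelin, and Opalin is a membrane glycoprotein of oligodendrocytes. Cnp is an enzyme that keeps the cytoplasmic channels of the sheath open, and Ermn (ermin) binds actin in the process tips and the outer sheath. The genes were chosen by symbol, and each of the 9 symbols was found once among the 43348 features of the 4 count matrices.

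Cells carrying TdTomato were sorted from frontal cortex and hippocampus of mice at postnatal days 18 to 20 and run on the 10x Genomics droplet platform, in which each counted transcript end carries a unique molecular identifier (UMI). All mice bore the Nkx2-1-Cre driver and the Ai14 TdTomato reporter. WT mice were Grin1 wt/wt and null mice Grin1 fl/fl, Grin1 being the subunit that every NMDA-type glutamate receptor needs. Comparisons were made between genotypes within a region and between regions within a genotype, over 3 WT and 2 null libraries from each region, told apart within a matrix by the suffix of the barcode. The driver marks cells whose ancestors expressed Nkx2-1. The sort also brought microglia and glutamatergic cells, so oligodendrocytes of other origin, with Grin1 intact, may be among the collected cells. Mice of both sexes came from shared litters. The methods give animals over all replicates and per round of processing but not per library, so p-values measure the spread between libraries.

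The files held 26987 barcodes and 169924587 UMIs, and 26201 cells passed the filter. Cortical WT libraries 1 to 3 had totals of 9306756, 14212183 and 28057207 UMIs, and the cortical null libraries had 1488601 and 25688337. The hippocampal totals were 10555408, 8782181 and 20639002 UMIs for WT and 3856745 and 47338167 for null. Suffixes were matched to replicate numbers by cell number, as the number of barcodes with each suffix equals the one the methods give for a replicate. By that match library 1 of each group used v2 reagents and the others v3. Barcodes shared between any 2 libraries made up at most 0.565% of the smaller one. WT hippocampus 2 was the shallowest, with a median of 1479 UMIs per kept cell against 5037 over all cells.

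Grin1 was read first as a check of the labels. In interneurons it stood at 142, 238 and 213 UMIs per 1000000 of the sum (CPM) in WT cortex and at 34.0 and 27.9 CPM in null cortex. In the hippocampus it stood at 115, 167 and 145 CPM in WT and at 27.8 and 19.0 CPM in null interneurons. Every null library lay below every WT library, although whether the counted tag falls in the deleted part is not given in the sources used here. In Mog-positive cells a library held between 0 and 10 Grin1 UMIs, too few to check the genotype of the cells that carry the myelin RNA.

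Cells were put into classes by marker UMIs, and of the 9 genes Mog alone was used, for the last class. Lineage cells, with at least 1 UMI over Olig1, Olig2 and Sox10, were assigned to whichever of Pdgfra, Gpr17 and Enpp6 had most UMIs, if it had at least 2. Lineage cells with at most 1 UMI of each of these and at least 2 Mog UMIs formed the Mog class. The Pdgfra, Gpr17, Enpp6 and Mog classes held 499, 1735, 2249 and 4802 cells, with medians of 2094, 4647, 7276 and 4874 UMIs. Interneurons, with at least 2 UMIs over Gad1 and Gad2 and no lineage UMI, numbered 10124 with a median of 7897 UMIs. Of the 4 lineage classes, 31.5%, 30.4%, 31.0% and 6.69% of the cells had exactly 2 UMIs of their class gene. Markers that took no part in the sorting followed the class names in part. Cspg4, a precursor gene, was at 409 CPM in the pooled Pdgfra class and at most 18.7 CPM in the later classes. Trf (transferrin), a gene of mature oligodendrocytes, was at 111, 513, 2602 and 2896 CPM from the Pdgfra to the Mog class. Bcas1, listed for newly formed cells, was higher in the Gpr17 class (1687 CPM) than in the Enpp6 class (1425 CPM), and Neu4, listed for committed precursors, was at 150 CPM in the Pdgfra and 144 CPM in the Gpr17 class. Klk6 and Apod, listed for mature cells, were higher in the Enpp6 class (150 and 893 CPM) than in the Mog class (61.5 and 823 CPM). The microglial gene C1qa and the astrocytic gene Aqp4 were at 0.240 and 0.321 CPM in the Mog class. Slc1a2, also listed for astrocytes, was higher there at 10.8 CPM, and the interneuron gene Sst at 74.0 CPM. In the Pdgfra class Slc1a2, Sst and the endothelial gene Cldn5 were at 138, 81.85 and 51.1 CPM. Ttr, of the choroid plexus, was at 291, 442, 13.9 and 6.01 CPM along the 4 classes.

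UMIs were summed per library and class where a class had at least 10 cells, which left 8 Pdgfra, 9 Gpr17, 9 Enpp6, 10 Mog and 10 interneuron sums. Null cortex 1 reached that number in the Mog class (14 cells) and in interneurons (136 cells) alone. With a single null cortex sum in each earlier class, genotype in cortex was fitted in the Mog class and in interneurons alone. In the Mog class the 9 genes together made up 63204 ± 10586 CPM (SD, n = 10), with WT hippocampus 2 lowest at 40612, a median of 66151 and null hippocampus 1 highest at 77394 CPM. Mbp ranged from 5289 to 18376 CPM with a median of 11714, and Mal from 7581 to 17375 CPM with a median of 14233. Opalin ranged from 314 to 2403 CPM with a median of 1519, and Ermn from 1198 to 2364 CPM with a median of 1417. The lowest library was WT hippocampus 2 for 6 of the 9 genes, and for Ermn it was the highest. Several of these levels moved with the reagent version. Mal lay at 7581 to 10612 CPM in the 4 v2 libraries and at 14204 to 17375 CPM in the 6 v3 libraries, and Cldn11 at 9868 to 11647 against 3146 to 7780 CPM. The v2 and v3 libraries did not overlap for either gene, nor for Mobp (8145 to 11185 against 3409 to 7316 CPM). Each gene is therefore also given as a percent of its own Mog class level in the same library, which sets aside what the library does to that gene in both classes alike.

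**Figure D1:**
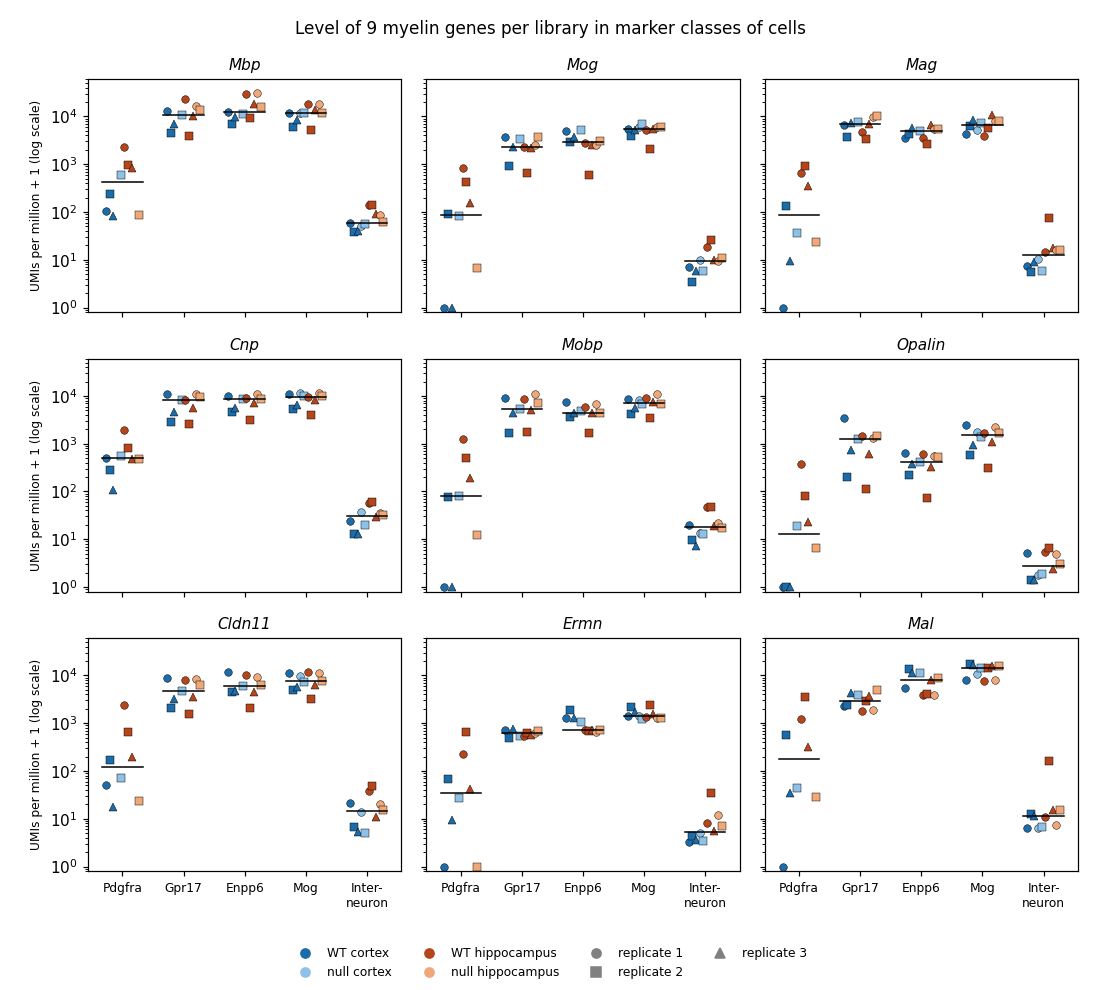
Level of each of the 9 myelin genes (CPM with 1 added, log axis) in the Pdgfra, Gpr17, Enpp6 and Mog classes and in interneurons, where each point is a library, colours mark region and genotype, shapes mark replicate numbers and black bars mark medians. Mbp medians go from 416 CPM in the Pdgfra class to 10525 in the Gpr17, 12600 in the Enpp6 and 11714 in the Mog class and stand at 59.0 CPM in interneurons, while Opalin is lower in the Enpp6 class (413 CPM) than on either side (1258 and 1519 CPM).

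Precursors held little of the 9 RNAs in most libraries. Their sum in the Pdgfra class was 658, 1625 and 257 CPM in WT cortex and 1507 CPM in null cortex 2. In the hippocampus it was 11246, 8495 and 2584 CPM in WT and 655 CPM in null hippocampus 2. These are 0.434% to 20.9% of the Mog class level, and WT hippocampus 1 and 2, at 16.6% and 20.9%, stand apart from the other 6 libraries, of which the highest is 3.67%. Cnp was on average the member nearest its mature level in the Pdgfra class, at 8.70 ± 7.61% of the Mog class (SD, n = 8), and Mobp the furthest from it, at 4.34 ± 6.31%. The spread between libraries exceeds the distance between these members. By the median over libraries Cnp was again nearest (5.44%), but Opalin was furthest (0.797%), with Mobp at 1.52%. A Cnp UMI was seen in 44.7% of precursors and in 16.6% of the deeper interneurons, and once each cell was thinned to 1000 UMIs the shares were 25.4% and 2.74%. For Mbp the shares were 27.7% and 31.9% unthinned and 17.3% and 6.02% thinned. At equal depth both RNAs were thus seen more often in precursors than in interneurons. The class rule asks precursors for at least 1 lineage UMI and interneurons for none, which thinning does not undo. Among other cells that should lack them, thinned microglia had Mbp in 22.0% and Cnp in 11.3%. In thinned astrocytes the shares were 13.3% and 23.1%, and in thinned glutamatergic cells 5.29% and 2.0%. Microglia for Mbp and astrocytes for Cnp thus came near or above precursors, while the rest lay lower. The detection in precursors is therefore not set apart from stray RNA.

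From the Pdgfra to the Gpr17 class all 9 genes rose. Mag had 0 CPM in the lowest Pdgfra sum, 83.9 in the median and 917 in the highest, against 3331, 6960 and 10245 CPM in the Gpr17 class. Mbp had 82.9, 416 and 2338 CPM against 3948, 10525 and 23272 CPM. For both genes the highest precursor sum lies below the lowest Gpr17 sum, and the rise was seen in 8 of 8 libraries. The log2 change was 4.96 for Mag (SE 0.46, adjusted p = 5.6e-12), and Mbp, at 4.52 (SE 0.36, adjusted p = 1e-13), was close to it. These come from edgeR's quasi-likelihood test with library as a covariate and Benjamini-Hochberg adjustment over 10124 genes, and a gene is called when its adjusted p is below 0.01 and it moves by 0.1 or more in natural log. Across all genes 21.9% rose by that rule, the median change was 0.06, and the members' median was 4.09. Mobp (4.80), Opalin (4.41), Cldn11 (4.09), Mog (3.81) and Cnp (3.74) also rose in 8 of 8 libraries. Ermn and Mal, both at 2.92, rose least and were higher in 7 of 8 libraries. The exception was WT hippocampus 2, whose Pdgfra class held 3478 CPM of Mal and whose Gpr17 class held 2915 CPM. Of all called genes 54.3% were higher, against 40.4% with DESeq2 and 28.9% with library-size scaling, and the 9 members were called higher with each. The all-gene median was -0.13 with DESeq2 and -0.35 with library-size scaling. Leaving out any 1 library, WT hippocampus 1 and 2 included, kept all 9 calls.

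At the next step, from the Gpr17 to the Enpp6 class, 1 member was called higher and 1 lower. Mal went from 1777 to 5014 CPM in the Gpr17 class (median 2915) to between 3806 and 13463 CPM in the Enpp6 class (median 8044). The Enpp6 class was the higher in 9 of 9 libraries, at 138% of the Gpr17 level in the lowest and 571% in the highest. Mal thus rose, by a log2 change of 1.49 (SE 0.43, edgeR adjusted p = 0.0071). The call is close to its limit, since within the v3 libraries the change was 1.57 with an adjusted p of 0.033, and with DESeq2 1.47 with an adjusted p of 0.075. It was also lost without WT cortex 1, 2 or 3, WT hippocampus 1 or 3, null cortex 2 or null hippocampus 1, where the change was 1.33 to 1.54 and the adjusted p 0.0102 to 0.0282. Opalin went the other way. It had 114 to 3507 CPM in the Gpr17 class (median 1258) and 73.5 to 652 CPM in the Enpp6 class (median 413). It was lower in 8 of 9 libraries, where the Enpp6 class held as little as 18.6% of the Gpr17 level, and WT cortex 2 was the exception at 114%. Opalin fell by 1.09 on the log2 scale (SE 0.25, edgeR adjusted p = 0.00088). The call held without each library in turn, while in the v3 libraries alone the change was -0.86 with an adjusted p of 0.0115, and with DESeq2 -1.10 with an adjusted p of 0.0974. With 9.07% of all genes higher and 9.40% lower, 1 of 9 either way is close to what all genes show. With no filter on low counts 5 members were higher and 1 lower, beside 4.95% and 4.71% of all genes. The pattern also depends on how the classes are drawn. With classes of thinned cells 7 members were higher and 0 lower, beside 7.07% and 5.33% of all genes. With at least 6 marker UMIs 6 were higher and 0 lower, beside 4.84% and 5.84%, and Opalin did not pass in either (-0.59, adjusted p = 0.121, and -0.66, adjusted p = 0.197). Of all called genes 49.1% were higher, against 45.9% with DESeq2, with a median of -0.03, and 27.4% with library-size scaling, where Mal did not pass (1.30, adjusted p = 0.013) and the all-gene median was -0.16.

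The other 7 members did not pass at that step. Ermn (0.82, SE 0.28, edgeR adjusted p = 0.0246) and Cldn11 (0.58, adjusted p = 0.214) were higher in the Enpp6 class in 9 of 9 libraries. Mbp (0.65, adjusted p = 0.0891) was higher in 8 of 9 libraries, Mog (0.58) and Cnp (0.33) in 7. Mag (-0.33) and Mobp (-0.02) were lower in 8 of 9 libraries, a direction that other class rules reverse. With thinned cells Mag changed by 1.20 and Mobp by 0.98, and with at least 6 marker UMIs by 0.88 and 0.68. As a share of the Mog class, Mag stood at 99.5 ± 34.3% in the Gpr17 class and 68.7 ± 12.1% in the Enpp6 class (SD, n = 9), and Mobp at 81.0 ± 24.0% and 69.0 ± 13.1%. Without the library covariate neither Mal (1.47, adjusted p = 0.076) nor Opalin (-1.37, adjusted p = 0.104) passed.

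From the Enpp6 to the Mog class Opalin rose again. Its Mog class level was 242% of the Enpp6 level in the lowest library, 338% in the median and 428% in the highest, higher in 9 of 9. The log2 change was 1.81 (SE 0.25, edgeR adjusted p = 2.01e-07), 1.77 within the v3 libraries (adjusted p = 1.39e-06) and 1.83 without the library covariate, where it missed the limit (adjusted p = 0.0176). Opalin was the single member called here, and 1 of 9 is close to the 9.95% of all genes called higher. With thinned cells 8 members were called higher, with at least 6 marker UMIs 8 and with no filter on low counts 6, beside 18.6%, 16.6% and 5.54% of all genes. Where Mog is among these members its call was set by the class rule. With the last class drawn without Mog 1 member was called higher, beside 7.72% of all genes. Of all called genes 43.4% were higher, against 52.5% with DESeq2 and 26.7% with library-size scaling. The all-gene median was 0.02, and 0.08 with DESeq2 and -0.10 with library-size scaling. Mal (0.82), Ermn (0.74), Mag (0.67), Mobp (0.63) and Cnp (0.30) were higher in the Mog class in 9 of 9 libraries and Cldn11 (0.37) in 8, with edgeR adjusted p from 0.0328 for Ermn to 0.443 for Cldn11. Mog (0.86) chose the class, so its change is a description. Mbp was the member that was lower in the Mog class, in 8 of 9 libraries, at 75.9% of the Enpp6 level in the median, and its change of -0.25 did not pass (adjusted p = 0.547) and was 0.03 with thinned cells.

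Read as percent of the Mog class, the members ordered differently in the middle classes. In the Gpr17 class Mag (99.5 ± 34.3%) and Mbp (93.4 ± 19.4%) stood nearest the mature level and Mal furthest from it, at 24.2 ± 5.21% (SD, n = 9). Between them lay Mobp (81.0%), Cnp (79.8%), Opalin (75.4%), Cldn11 (63.3%), Mog (45.4%) and Ermn (41.2%), each with a range over libraries that overlaps those of its neighbours. These levels come mostly from cells with few Gpr17 UMIs. In the 1300 cells with 2 to 5 of them Mag stood at 113%, Mobp at 91.2% and Opalin at 87.1% of the Mog class. In the 435 cells with at least 6, in 6 libraries, Mbp stood at 66.1%, Mag at 38.8%, Mobp at 33.3%, Opalin at 21.2% and Mal at 6.71%. In the Enpp6 class Mbp stood at 133 ± 29.0% and Opalin at 31.3 ± 6.22% of the Mog class. Opalin ranged from 23.4 to 41.3% with no overlap with Mbp (97.0 to 176%). Cnp (87.7 ± 5.08%) and Cldn11 (83.1%) followed Mbp, and Mobp (69.0%), Mag (68.7%), Ermn (64.7%), Mog (59.6%) and Mal (58.5%) overlapped one another. On this scale each gene of the Enpp6 class overlapped between v2 and v3 libraries, Opalin widely (24.6 to 37.3% and 23.4 to 41.3%) and Cnp barely (90.4 to 95.3% and 78.9 to 90.5%). The sum of the 9 genes did not, at 89.1 to 96.5% in v2 and 59.7 to 83.4% in v3 libraries.

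Cells that carried at least 2 UMIs of both Gpr17 and Enpp6 were then taken apart from cells with either alone, a split chosen after the levels had been seen and given as a description. In the 1150 double-positive cells Mbp stood at 149 ± 33.0% of the Mog class (SD, n = 9), Cnp at 74.5% and Mag at 56.2%. The same cells held 18.7% of the mature level of Mog, 14.6 ± 7.33% of that of Opalin, 14.3% of that of Ermn and 11.9 ± 7.76% of that of Mal. Mbp was therefore above its mature level on average in cells in which 4 other members were at most at 18.7% of theirs. In the 1115 cells with Gpr17 but fewer than 2 UMIs of Enpp6, Opalin stood at 99.1 ± 43.3% and Mag at 110 ± 40.1%, with Mal at 30.7%. In the 1254 cells with Enpp6 but fewer than 2 UMIs of Gpr17, Mal stood at 86.0 ± 20.7%, Ermn at 92.9% and Opalin at 39.8 ± 11.3%. Bmp4, a gene of committed precursors, was at 182 CPM in the double-positive cells and at 50.4 and 11.6 CPM in those with Gpr17 or Enpp6 alone. The 577 cells with at least 6 Enpp6 UMIs, in 7 libraries, had Mbp at 178% and Opalin at 11.7% of the Mog class. Mal, Ermn and Mog stood at 21.8%, 25.2% and 28.8% in them. In the 1672 cells with 2 to 5 Enpp6 UMIs these genes stood at 71.1%, 77.2% and 69.3%, so their Enpp6 class levels come mostly from cells with few Enpp6 UMIs.

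Within the Enpp6 class, the share of the mature level separated the libraries of the 2 regions for 5 of the 9 members. Mog stood at 91.7, 74.3 and 73.2% of its Mog class level in WT cortex and 74.6% in null cortex 2. In the hippocampus it stood at 54.8, 28.2 and 46.0% in WT and 42.7 and 50.9% in null libraries, so that no hippocampal library reached the lowest cortical value. Ermn had 92.6, 88.2 and 75.1% in WT cortex and 86.9% in null cortex 2, against 54.9, 28.7 and 48.3% in WT and 51.5 and 55.8% in null hippocampus. Mal had 69.5, 77.5 and 69.0% in WT cortex and 77.6% in null cortex 2, against 50.2, 28.1 and 50.9% in WT and 48.1 and 55.7% in null hippocampus. Mbp was ordered the other way. Its values were 105, 114 and 111% in WT cortex and 97.0% in null cortex 2, against 160, 176 and 132% in WT and 169 and 135% in null hippocampus. Mobp too separated the regions, at 73.2 to 87.8% in cortex and 48.7 to 65.2% in hippocampus. For these 5 genes the 4 cortical and 5 hippocampal libraries did not overlap, while Mag, Cnp, Opalin and Cldn11 overlapped. Over 8872 genes 6.22% lay wholly higher and 4.58% wholly lower in hippocampus, against 1 and 4 of the 9 members. As Mog chose the class that these percents are taken of, the last class was also drawn without it. The same 5 members then separated the regions, with Mog at 72.2 to 90.3% in cortex and 35.7 to 55.9% in hippocampus, beside 4.64% and 4.09% of 8469 genes.

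**Figure D2:**
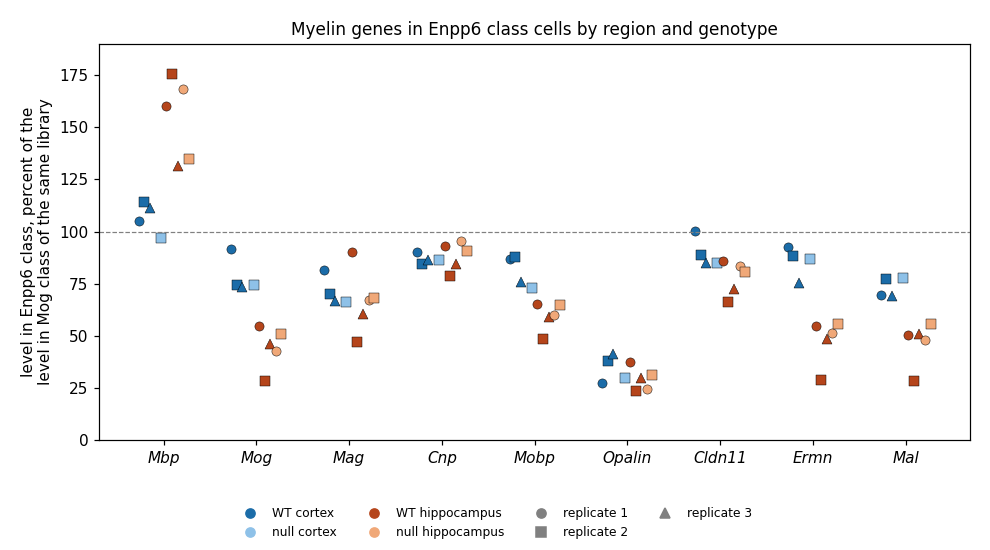
Level of each myelin gene in the Enpp6 class as a percent of its Mog class level in the same library (linear axis, dashed line at 100%), where each point is a library, colours mark region and genotype and shapes mark replicate numbers. Cortical libraries lie above hippocampal ones for Mog (73.2 to 91.7% against 28.2 to 54.8%), Ermn and Mal and below them for Mbp (97.0 to 114% against 132 to 176%).

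Whether a step differs between the regions was tested by an interaction of step and region, added after these levels had been seen. No member passed at any of the 3 steps by edgeR, where 0.0395%, 1.35% and 0.928% of all genes did, and none passed with DESeq2. DESeq2 gave an adjusted p to 1095, 6198 and 3451 genes, against 10124 by edgeR. With it Mag came close at the first step (-3.64, DESeq2 adjusted p = 0.0131). At an unadjusted p under 0.05 the members numbered 9 of 9 at the first step, beside 831 of 10124 genes. At the others they numbered 1 of 9, beside 1480 and 1399 genes, which is no more than the share of all genes. From the Gpr17 to the Enpp6 class Ermn had a difference between regions of -1.05 (SE 0.40, adjusted p = 0.161) and Mog of -0.95 (adjusted p = 0.363). From the Enpp6 to the Mog class Ermn had a difference of 0.94 (SE 0.39, adjusted p = 0.227). At the first step the differences ran from -4.18 for Opalin to -1.46 for Mbp, with an adjusted p of 0.0979 for Mag (-3.42, SE 0.85). That step holds the 2 WT hippocampus libraries whose Pdgfra classes stand apart, and without null hippocampus 2 it had 6 members called lower, beside 0.105% of all genes. With a minimum of 6 class marker UMIs, Ermn, Mal and Mog were called lower at the second step, beside 0.252% of all genes. Marker genes moved with region in the Enpp6 class as well. The 5 newly formed markers, none at 0, summed to 940, 1887, 2088 and 1989 CPM in cortex and to 2285, 5578, 3633, 2659 and 3258 CPM in hippocampus, with Bcas1 or Enpp6 the most abundant. Enpp6 chose the class, so its part of these sums was set in part by the class rule. The part of these markers in the regional values of the members was not tested.

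Region in WT and genotype in hippocampus were also fitted within the earlier classes, after the levels had been seen. Null hippocampus 1 has too few precursors, so genotype was fitted in the Gpr17 and Enpp6 classes. Without a replicate block edgeR called no gene (0%) in any of these comparisons, members included. For genotype in the Gpr17 class no member and 253 of 9127 genes had an unadjusted p under 0.05. All 9 changes were above 0, with a median of 0.80 beside -0.06 for all genes. The median was 0.42 without WT hippocampus 2 and 1.22 without WT hippocampus 1. Mag, at 9476 and 10245 CPM in null against 4685, 3331 and 6960 in WT hippocampus, changed most (1.03, SE 0.49, adjusted p = 1.0). In the Enpp6 class no member and 129 of 8408 genes were under 0.05, and the members' median was 0.50 beside -0.02, and 0.11 without WT hippocampus 2, 0.92 without WT hippocampus 1, 0.33 without null hippocampus 1 and 0.77 without null hippocampus 2. DESeq2 called no gene for genotype in either class, and at an unadjusted p under 0.05 it had 205 and 124 genes and 1 member (Mag, Gpr17 class). With the replicate number as a block edgeR called 4 and 5 genes for genotype and no member, and 6 and 3 members were under 0.05, beside 1170 and 693 genes. For region in the WT Gpr17 class no member and 107 genes were under 0.05, and DESeq2 called none. In the WT Enpp6 class Ermn (-1.15, SE 0.30, adjusted p = 0.219), Mog (-1.07) and Mal (-1.01) were under 0.05, lower in hippocampus, beside 730 genes. DESeq2 called 29 genes there and no member. Without any 1 library no member was called in these 2 classes. In the WT Pdgfra class all 9 members were under 0.05, beside 248 of 4666 genes, and higher in hippocampus, with a median of 3.65 beside 0.06. Without WT cortex 2 the median was 6.19 beside 0.09. Mbp had the smallest adjusted p (3.46, SE 0.59, adjusted p = 0.0471). DESeq2 gave an adjusted p to 323 genes there, against 4666 by edgeR, and called 1, Mbp. With the replicate block 9 members were called higher, of 20 genes higher and 12 lower. Without WT cortex 2, WT hippocampus 2 or WT hippocampus 3 in turn, 6, 1 and 7 members were called higher. They were among 7 of 4585, 1 of 4533 and 9 of 4588 genes called higher. WT hippocampus 1 and 2, which stand apart, are 2 of the 3 hippocampal sums there.

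In the Mog class neither region nor genotype moved a member past the limit. Mbp had 11972, 6037 and 8544 CPM in WT cortex, 11534 and 11546 in null cortex, 18376, 5289 and 13826 in WT hippocampus and 17955 and 11882 CPM in null hippocampus. The hippocampus minus cortex change was 0.47 in WT (SE 0.46) and 0.52 in null (SE 0.57), well inside the spread of WT hippocampus. In WT it was 0.03 without WT hippocampus 1, 0.84 without WT hippocampus 2, 0.83 without WT cortex 1 and 0.22 without WT cortex 2. In null it was 0.05 without null hippocampus 1, 0.84 without null hippocampus 2 and 0.01 in the v3 libraries. Opalin had 2403, 589 and 921 CPM in WT cortex, 1745 and 1400 in null cortex, 1638, 314 and 1089 in WT hippocampus and 2252 and 1663 CPM in null hippocampus. Its null minus WT change was 0.08 in cortex (SE 0.65) and 0.98 in hippocampus (SE 0.64, edgeR adjusted p = 1.0), where both null libraries lay above the 3 WT libraries. It was 0.55 without WT hippocampus 2, 0.65 without null hippocampus 1 and 1.56 without WT hippocampus 1. Ermn had 1412, 2142 and 1751 CPM in WT cortex, 1422 and 1198 in null cortex, 1339, 2364 and 1524 in WT hippocampus and 1290 in each null hippocampus library. Its null minus WT change was -0.55 in cortex (SE 0.37) and -0.42 in hippocampus (SE 0.36). Over the 5 contrasts (region in WT and in null, genotype in cortex and in hippocampus, and their difference) edgeR called 0 of 9496 genes (0%), members included. At an unadjusted p under 0.05 it had 153, 55, 131, 183 and 34 genes and no member. DESeq2 called 3 genes lower for region in WT and 3 higher for genotype in hippocampus, none of them a member, and none in the other contrasts. With the replicate number as a block edgeR called 78, 19, 1 and 4 genes in the first 4 contrasts and again no member. Of the 9 genes, 2 had both null hippocampus libraries above both null cortex libraries, as did 15.2% of all genes. In hippocampus 3 members, Cnp, Opalin and Mog, of which Mog chose the class, had both null libraries above the 3 WT ones and 1, Ermn, below them, beside 8.1% and 6.31% of all genes. In cortex Mog alone, which chose the class, had both null libraries above the 3 WT ones, beside 7.76% of all genes.

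Mog class cells were also split by genes of mature subtypes. The 1631 cells with at least 2 UMIs of Ptgds, a prostaglandin synthase of mature oligodendrocytes, were set against 2538 cells with none in 9 libraries. Opalin was higher with Ptgds in 9 of 9 libraries, from 101 to 194% of the level without it (median 131%), and rose by a log2 change of 0.43 (SE 0.07, edgeR adjusted p = 0.000378). It was the single member of 9 called, beside 0.659% of all genes called higher. Mbp (-0.22, adjusted p = 0.0236) and Mobp (-0.20, adjusted p = 0.0499) were lower in 7 of 9 libraries and did not pass, except without WT cortex 3, where both did. DESeq2 (0.43, adjusted p = 0.0019), library-size scaling and the fits without any 1 library (0.37 to 0.48) kept the call of Opalin. Klk6, a secreted protease, marked 224 Mog class cells in 6 libraries, set against 2988 with none. With Klk6 Opalin stood at 17.9 to 32.4% of the level without it (median 28.3%) and fell by 1.96 (SE 0.09, edgeR adjusted p = 6.65e-86). Mag stood at 57.7 to 81.3% (median 65.6%) and fell by 0.62 (SE 0.06, adjusted p = 5.12e-19). The 2 genes were lower in 6 of 6 libraries. The edgeR fit pools its estimate of spread over genes, so p-values this small do not rest on the 6 libraries of each gene alone. Mal, Mbp, Mobp and Cnp fell by 0.27 to 0.34, so 6 of the 9 members fell beside 5.12% of all genes. Cldn11 (-0.15), Mog (-0.14) and Ermn (0.10) did not pass. DESeq2 called 5 lower, without Mobp (-0.25, adjusted p = 0.0212), beside 2.33% of all genes, and library-size scaling the same 6. Of all called genes 44.6% were higher, against 54.7% with DESeq2. Leaving out 1 library kept the 6, apart from Cnp without null hippocampus 2. Opalin then changed by -2.06 to -1.77.

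In interneurons the 9 RNAs were seen at a low level in all libraries. Their sum was 143, 86.2 and 88.7 CPM in WT cortex, 141 and 110 in null cortex, 333, 592 and 190 in WT hippocampus and 202 and 169 CPM in null hippocampus. That is 0.150 to 1.46% of the Mog class level of the same library, with WT hippocampus 2 the highest. The class rule left out neurons with any lineage UMI, so neurons with more stray RNA of this lineage may be missing. A UMI of Mbp was seen in 31.9% of interneurons and in 99.8% of Mog class cells, and with each cell thinned to 1000 UMIs in 6.02% and 99.4%. Opalin was seen in 1.38% of interneurons and 77.4% of Mog class cells, and thinned in 0.194% and 56.2%. Glutamatergic cells, with a median of 5377 UMIs, had an Mbp UMI in 18.7% and thinned in 5.29%, close to interneurons at equal depth. The neuronal levels did not keep the proportions of the mature cell. As a percent of its Mog class level, Mbp was the highest of the 9 genes in 9 of 10 libraries, at 0.438 to 0.754% except in WT hippocampus 2 (2.68%), and Ermn was the highest in null hippocampus 1. Mal was the lowest in 7 of 10 libraries and among the lowest 3 in all 10, at 0.0402 to 0.132% apart from WT hippocampus 2 (1.12%). The highest and lowest gene differed by a factor of 2.39 in WT hippocampus 2 and of 5.73 to 12.1 in the other libraries. Cnp was among the 3 highest genes in 9 of 10 libraries. Glutamatergic cells, in 6 libraries with at least 10 of them, showed Mbp at 0.640 ± 0.209% and Mal at 0.0311 ± 0.0276% of the Mog class. Ermn was lower there, at 0.0108%, with no UMI in 5 of the 6.

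**Figure D3:**
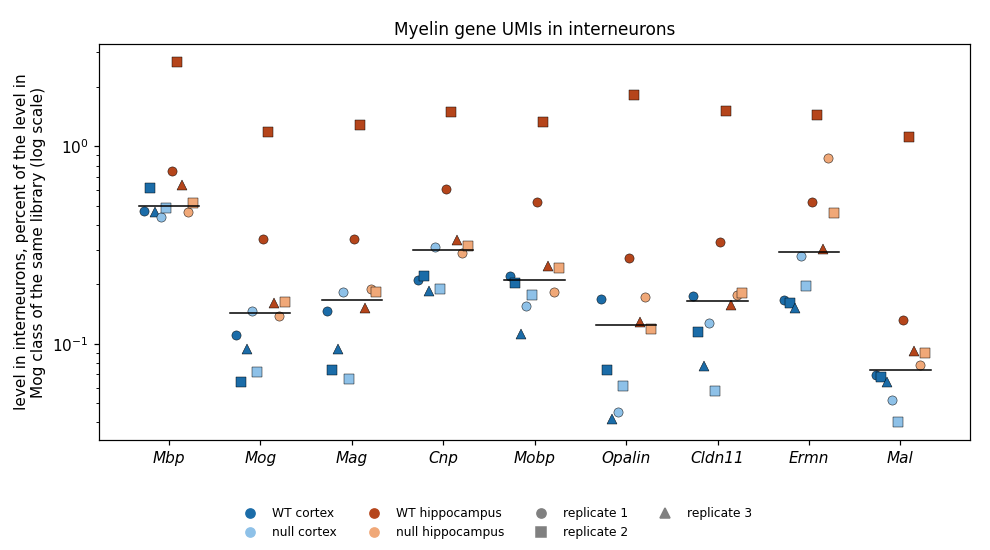
Level of each myelin gene in interneurons as a percent of its Mog class level in the same library (log axis), where each point is a library, colours mark region and genotype, shapes mark replicate numbers and bars mark medians. Mbp has a median of 0.500% and Mal of 0.0741%, and WT hippocampus 2 lies above the other libraries for each gene, from 1.12 to 2.68%.

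Few cells held much of this RNA in WT hippocampus 2. There, 37 interneurons (3.18%) with at least 10 member UMIs held 68.7% of the member UMIs, and without them the sum was 193 CPM, Mbp stood at 1.39% and Mal at 0.190% of the Mog class. In the other libraries cells of that kind were 0 to 2.94% of interneurons and held 0 to 30.6% of the member UMIs. Without these cells Mbp was still the highest gene in 9 of 10 libraries, and Mal the lowest in 9 of 10.

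Hippocampal interneurons held more of the 9 RNAs than cortical ones in WT, at 371 ± 204 against 106 ± 31.9 CPM (SD, n = 3 each). The 3 hippocampal libraries lay above the 3 cortical ones, and the two-sided exact permutation p of 0.1 is the smallest that 3 against 3 can give. In null interneurons the sums were 185 ± 23.6 and 125 ± 21.9 CPM (n = 2 each, exact permutation p = 0.333, the smallest possible). Without cells of at least 10 member UMIs the WT sums were 220 ± 62.2 and 95 ± 42.8 CPM (n = 3 each, exact permutation p = 0.1). Over all kept cells of a library the 9 RNAs made up 45058, 17678 and 24291 CPM in WT hippocampus and 13458, 8577 and 6764 CPM in WT cortex, so the collected WT cells as a whole differed in the same direction. In null they made up 24871 and 23895 CPM in hippocampus and 5495 and 20428 CPM in cortex. Null cortex 2 thus stood above WT hippocampus 2, while its interneurons held 110 CPM against 592. The part of the levels over all cells in the neuronal levels was not tested. Gene by gene, all 9 changes in WT were above 0, and Mbp, at 87.9 to 142 CPM in hippocampus and 37.3 to 56.7 CPM in cortex, had the smallest adjusted p. Its change was 1.42 (SE 0.28, edgeR adjusted p = 0.0338), with no overlap between the regions, and 1.56 in the v3 libraries (adjusted p = 0.218). By edgeR 0 of 9 members were called beside 0.235% of all genes called higher (40 genes in all, 90 with the replicate number as a block), while 8 of 9 had an unadjusted p under 0.05, beside 1157 of 13640 genes. DESeq2 called 4 higher (Mbp, Mog, Mag and Cnp), beside 144 genes higher and 67 lower. Members wholly higher in hippocampus numbered 5 of 9 in WT and 7 of 9 in null, beside 6.83% and 17.8% of all genes. WT hippocampus 2 decides the size for Mal, Ermn and Mag, whose changes were 2.69, 2.37 and 2.39 with it and 0.35, 0.94 and 1.16 without it.

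Genotype moved no member past the limit in interneurons. In cortex the null and WT sums were 125 ± 21.9 (n = 2) and 106 ± 31.9 CPM (n = 3, exact permutation p = 0.6), and the members' median change was 0.00. In hippocampus they were 185 ± 23.6 (n = 2) and 371 ± 204 CPM (n = 3, exact permutation p = 0.4), and the members' median change was -0.90. As a percent of the Mog class they were 0.253 ± 0.0116 and 0.739 ± 0.632%, and without cells of at least 10 member UMIs 160 ± 6.15 and 220 ± 62.2 CPM (n = 2 and 3, exact permutation p = 0.2 for each, the smallest possible). Mbp alone of the 9 lay wholly lower in null, as did 7.97% of all genes. The largest change there, -2.51 for Mal (SE 1, edgeR adjusted p = 0.973), rests on WT hippocampus 2, at 160 CPM against 9.97 and 14.6 CPM in the other WT libraries and 6.34 and 14.2 CPM in null. By edgeR no gene of 13640 (0%) was called for region in null, for genotype in either region or for their difference, and with the replicate block 4 were for region in null. At an unadjusted p under 0.05 these contrasts had 609, 296, 457 and 95 genes and 0, 0, 2 and 1 members, and DESeq2 called 57, 1, 1 and 0 genes and no member. Mbp and Mal were the 2 members in hippocampus, and Mbp the member in the difference (-1.02, SE 0.44).

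Astrocytes and microglia, sorted in small numbers, were more uneven. Astrocytes of 9 libraries held 0.272 to 33.0% of the Mog class level of the 9 genes, highest in WT hippocampus 1, and a Cnp UMI was seen in 46.8% of 432 astrocytes (median 2888 UMIs), thinned in 23.1%. Thinned, Mbp was seen in 13.3% of astrocytes and 22.0% of microglia against 6.02% of interneurons. Single cells of both classes reached high counts, with 279 Mbp UMIs in an astrocyte and 196 in a microglial cell, against 53 in the highest interneuron.

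The number of cells that carry the 9 RNAs was compared as the share of each class among lineage cells. The Mog class made up 49.2 ± 16.9% of lineage cells in WT cortex, 40.8 ± 19.9% in WT hippocampus (n = 3 each), 48.8 ± 10.2% in null cortex and 46.9 ± 3.32% in null hippocampus (n = 2 each). The smallest exact permutation p over the 4 classes and 4 contrasts was 0.2, for the Enpp6 class in null against WT hippocampus (29.0 ± 2.22%, n = 2, and 14.3 ± 10.4%, n = 3). That is also the smallest p that 2 against 3 libraries can give, and the 2 null libraries lay above the 3 WT ones.

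A list of 40 other genes of myelin and the myelinating cell moved with the members at the first step and less uniformly later. From the Pdgfra to the Gpr17 class 38 rose and Pmp22, a protein of peripheral myelin, fell by 3.73. Of all genes 21.9% were higher at that step and 18.4% lower. Tmem125 (5.49), Adamts4 (4.91) and Nfasc (4.83) rose most, and the median of the list was 3.06 beside 4.09 for the members. From the Gpr17 to the Enpp6 class 15 rose and Cd9 fell by 1.06, beside 9.07% of all genes higher and 9.40% lower, with Hapln2 (4.11), Pmp22 (3.20), Apod (2.85), Trf (2.51), the gap junction gene Gjb1 (2.01) and Cntn2 (1.71) the largest. The list's median was 0.43 and that of the members 0.58. From the Enpp6 to the Mog class 18 rose and Bcas1, Plxnb3, Nfasc and Sirt2 fell, by 1.77, 0.90, 0.59 and 0.56, beside 9.95% of all genes higher and 12.9% lower. In the Mog class and in interneurons 0 of 40 and 0 of 32 tested genes were called by edgeR in any contrast. With Klk6, 7 of the list rose and 11 fell, beside 4.11% of all genes higher and 5.12% lower, with Pmp22 (3.90), Hapln2 (2.06), Nfasc (-2.07), Cd9 (-2.04), Apod (1.26) and Sirt2 (-1.09) being the largest, so that Opalin (-1.96) ranks with the strongest falls.

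The 9 genes lie on 8 chromosomes of the GRCm38 build, in the GENCODE vM21 annotation. Opalin (ENSMUSG00000050121) spans chr19:41061710-41077113 on the minus strand and Mal (ENSMUSG00000027375) chr2:127633226-127656695, also minus. Mbp (ENSMUSG00000041607) spans chr18:82475146-82585637 on the plus strand, with 16 annotated transcripts, and Mag (ENSMUSG00000036634) chr7:30899176-30914873 on the minus strand with 8. Ermn shares chromosome 2 with Mal at 58045113 to 58052864 on the minus strand. Mobp overlaps 2 annotated transcripts of its own strand, and Ermn, Cnp, Mog, Mbp and Opalin overlap a gene of the other strand. How UMIs were divided between such neighbours is not given in the sources used here.

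Over the 36 sums of the 4 lineage classes, genes were ranked by the Pearson correlation of log2(CPM + 1) with the mean standardised profile of the 9 members, among 6218 genes. The sums share libraries and depth, so the values are a description. Each member is part of that mean profile, so the values and ranks of the members are in part built in. The members themselves reached from 0.927 for Mal to 0.990 for Mobp. Others near them were Gamt (0.982), an enzyme of creatine synthesis, Nkx6-2 (0.977), a homeodomain factor, 1110007C09Rik (0.977), Lgi3 (0.973), S1pr5 (0.968), Lpar1 (0.966), Ppp1r14a (0.965) and Car14 (0.964). Nkx6-2 and Ppp1r14a are on the list of 40, and 5 members (Mobp, Mog, Cldn11, Mag and Mbp) rank among the first 13 genes.

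Promoter sequences, 250 bases before to 50 after the start, were taken from RefSeq (GRCm38.p6) and were found for 8 of the 9 members, the missing entry being Mbp. They are shown for Opalin and Mal, the 2 members called from the Gpr17 to the Enpp6 class, and for Mag and Cnp, which share a match with Opalin. Capitals mark matches, on either strand, to the motifs named here. A form of the motif of the myelin regulator Myrf is CTGGCAC, which a reader of the other strand sees as GTGCCAG. A form of the Sox motif is ACAAAG, which a reader of the other strand sees as CTTTGT. The Myrf form CTGGCAC was found in Opalin, Mag and Cnp, 3 of 8 members, and in 5.01% of all 32851 promoters. ACAAAG was found in these 3 and in Mobp, which has 6 matches, and in 18.7% of all promoters, while the variant ACAATG, whose other strand reads CATTGT, was found in Ermn and in 12.6%. Mag has 3 entries in the table, of which the first is shown, the second overlaps it and the third has no match. By entry the Myrf form was found in 4 of 10. The window of Mal holds none of the 3 motifs.
Opalin, chr19:41077064-41077363, minus strand: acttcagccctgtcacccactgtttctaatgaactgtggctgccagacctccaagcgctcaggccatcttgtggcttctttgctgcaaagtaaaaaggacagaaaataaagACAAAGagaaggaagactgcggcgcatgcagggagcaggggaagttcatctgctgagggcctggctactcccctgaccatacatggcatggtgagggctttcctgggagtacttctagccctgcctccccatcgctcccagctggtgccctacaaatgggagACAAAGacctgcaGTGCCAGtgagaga
Mal, chr2:127656646-127656945, minus strand: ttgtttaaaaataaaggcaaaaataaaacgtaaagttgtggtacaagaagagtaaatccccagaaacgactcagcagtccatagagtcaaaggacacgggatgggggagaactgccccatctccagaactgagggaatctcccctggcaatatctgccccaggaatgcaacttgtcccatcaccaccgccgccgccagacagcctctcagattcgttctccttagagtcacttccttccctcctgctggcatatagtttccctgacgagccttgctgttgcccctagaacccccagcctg
Mag, chr7:30914814-30915113, minus strand: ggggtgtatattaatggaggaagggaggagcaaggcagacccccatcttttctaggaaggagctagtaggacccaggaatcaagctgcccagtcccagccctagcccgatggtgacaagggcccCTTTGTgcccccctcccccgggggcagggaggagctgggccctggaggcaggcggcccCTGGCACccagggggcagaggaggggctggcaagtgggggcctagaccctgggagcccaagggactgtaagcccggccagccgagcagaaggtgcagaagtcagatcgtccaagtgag
Cnp, chr11:100574689-100574988, plus strand: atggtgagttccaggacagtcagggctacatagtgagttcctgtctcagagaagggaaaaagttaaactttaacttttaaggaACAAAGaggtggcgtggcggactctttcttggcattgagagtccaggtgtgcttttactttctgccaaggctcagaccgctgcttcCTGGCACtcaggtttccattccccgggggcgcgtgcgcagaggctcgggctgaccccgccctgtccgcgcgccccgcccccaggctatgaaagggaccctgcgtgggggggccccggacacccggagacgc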

How the data were processed

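The authors counted UMIs per gene and cell with Cell Ranger (2.1.1 in the methods, 3.0.2 per the file headers) on mm10 with gene ends extended downstream, and deposited raw counts. The members and lists were chosen with earlier results of these data known. A cell was used if it had from 200 up to 6000 genes and less than 30% of its UMIs from mitochondrial genes. Cells were put into marker classes and summed per library and class where at least 10 cells were found. No doublet caller was run. The 345 cells with at least 2 UMIs of both the Gad and the lineage genes were left out as mixed, and doublets may remain, also among neurons with 10 or more member UMIs. Levels are UMIs per 1000000 of the sum (CPM). Sums were tested with edgeR 4.0.16 (quasi-likelihood, limma 3.58.1, R 4.3.3), with Benjamini-Hochberg adjustment over all genes tested, and again with DESeq2 1.42.0. Class steps and the Ptgds and Klk6 splits had library as a covariate. The step by region interaction, the fits within the earlier classes, the alternatives of the Ptgds and Klk6 splits, the last class without Mog as a base for percents, the minimum of 6 marker UMIs and the double-positive cells were added after levels had been seen. Shares and summed values were compared by two-sided exact permutation over libraries (Python 3.11.15, numpy 2.4.6, scipy 1.17.1, pandas 2.3.3, figures with matplotlib 3.10.9). Fits were tested on simulated data. Some marker and list genes are not reported here.

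Replicate numbers were checked for pairing. In the WT regions, libraries of the same number deviated together from their group means in the Mog class (r = 0.871, 0.812 and 0.423) and in interneurons (0.798, 0.731 and 0.453), so the numbers pair them. With this replicate block the region contrast of the WT Mog class went from 0 to 78 called genes and from 0 to 0 members.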

Additional observations from a re-analysis of the deposited data

How the results depend on the processing

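Of 2065 alternative values of 113 results, 1859 were labelled alike, 95 moved, 40 reversed, 53 were stronger and 18 weaker. The 9 rises from the Pdgfra to the Gpr17 class held under each setting.

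Members called higher from the Gpr17 to the Enpp6 class numbered 1, and 2 at an adjusted p under 0.05, 0 with DESeq2, 0 with library-size scaling, 5 with no filter on low counts, 0 with v3 alone, 0 with the stricter cell filter, 2 with class markers of at least 3 UMIs, 7 with classes of thinned cells, 0 without the library covariate and 6 with markers of at least 6 UMIs. Leaving out 1 library gave 0 (WT cortex 1) to 2 (WT hippocampus 2). Of all genes 9.07% were higher, and 12.9% at an adjusted p under 0.05, 4.95% with no filter and 8.47% with at least 3 UMIs. The share was 7.07% with thinned cells, 4.84% with at least 6 UMIs and 9.04% without WT hippocampus 2. Members called lower numbered 1, and 0 with DESeq2, 0 with v3 alone, 0 with thinned cells, 0 without the library covariate and 0 with at least 6 UMIs. From the Enpp6 to the Mog class 1 member was higher, and 2 at an adjusted p under 0.05, 6 with no filter, 2 with at least 3 UMIs, 8 with thinned cells, 0 without the library covariate and 8 with at least 6 UMIs. Where Mog is among them, its call was set by the class rule. Of all genes 9.95% were higher, and 15.2%, 5.54%, 12.7%, 18.6%, 2.4% and 16.6% under those settings in turn.

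Mag changed by -0.33 from the Gpr17 to the Enpp6 class, by 1.20 with thinned cells and by 0.88 with at least 6 UMIs. Mobp changed by -0.02, by 0.0218 with no filter, 0.126 with v3 alone, 0.203 with at least 3 UMIs, 0.984 with thinned cells, 0.684 with at least 6 UMIs, and -0.193 (without WT cortex 2) to 0.108 (without null hippocampus 2). Mbp changed by -0.25 from the Enpp6 to the Mog class and by 0.0323 with thinned cells.

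In interneurons the region contrast in WT had 0 members higher, and 1 at an adjusted p under 0.05, 4 with DESeq2 and 8 with no filter, where 0.888% of all genes were higher. Genotype in hippocampus had 0 lower and 1 (Mal) with no filter, where 0.14% of all genes were lower. By region, the first step had 0 lower, and 0 (without WT cortex 1) to 6 (without null hippocampus 2) when 1 library was left out, and the second step 0, and 3 with at least 6 UMIs. The summed members differed by 19.2 CPM between genotypes in cortical interneurons and by -2.73 CPM without neurons of 10 or more member UMIs.

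Class shares, in points of lineage cells, reversed as follows. The Pdgfra class differed by 0.396 by region in WT, -0.117 with at least 3 UMIs, -1.74 with thinned cells and -1.94 to 1.91 leaving out 1 library, and by -0.347 in null (-1.64 to 0.948). The Gpr17 class differed by 5.41 by region in WT (-0.671 to 11.6) and 0.906 in null (-0.164 to 1.98, -3.68 thinned). By genotype it differed by -0.380 in cortex (-3.59 to 2.95, 0.113 with at least 3 UMIs, 0.404 thinned) and -4.88 in hippocampus (-11.0 to 1.20). The Enpp6 class differed by -6.11 by region in WT (0.399 thinned), 0.389 in null (-8.27 to 9.04) and 8.22 by genotype in cortex (-0.439 to 16.9, -1.24 thinned). The Mog class differed by -8.38 by region in WT (-17.8 to 2.16) and -1.97 in null (-9.15 to 5.20). By genotype it differed by -0.347 in cortex (-9.73 to 6.83, 1.31 with at least 3 UMIs, 3.01 thinned) and 6.06 in hippocampus (-4.48 to 15.3).

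All genes called at the 3 steps numbered 4083, 1870 and 2318, and 2218, 604 and 717 without the library covariate (no replicate block). With thinned cells the first 2 were 1162 and 833, and with at least 6 UMIs 1425 and 1101. By region the steps had 4, 137 and 94 genes, and 25, 84 and 42 with DESeq2, which gave an adjusted p to fewer genes. The region contrast in WT interneurons had 40 genes, and 147 at an adjusted p under 0.05, 211 with DESeq2, 360 with no filter, 0 with v3 alone, 90 with the replicate block and 1 without WT cortex 3. In the Mog class with no filter the 5 contrasts had 7, 1, 11, 22 and 1 genes. By region, higher genes were 100%, 64.2% and 62.8% of those called, and 12%, 54.8% and 40.5% with DESeq2. The replicate block changed no call of a member in the Mog class or interneurons. For region in the WT Pdgfra class it took the members called higher from 0 to 9.

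In the classes before Mog, genotype in cortex was compared by class share alone and not by gene levels. Animals per library are not given, classes rest on few marker UMIs, and the source of myelin RNA in neurons was not tested.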
